A study of Homo sapiens with 4 samples.

Results

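The respiratory chain and ATP synthase genes of hTERT-RPE1, a telomerase-immortalised human cell line from retinal pigment epithelium, were examined as a set divided by the genome that encodes them. Members were taken by gene symbol from a table of read counts: ND1 to ND6, ND4L, CYTB, COX1 to COX3, ATP6 and ATP8 for the mitochondrial genome, and the NDUF, SDH, UQCR, COX4 to COX8 and ATP5 symbols for the nuclear genome. Of 115 matching rows, 17 were pseudogenes, antisense genes or another transcript that does not encode a protein and were set aside, which left 98 members of 19653 genes, 13 mitochondrial and 85 nuclear. A low-count filter was passed by 91 members, all 13 mitochondrial and 78 nuclear.

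The study sequenced RNA of 4 libraries of untreated cells, 2 labelled sgControl (genotype WT) and 2 labelled sg53BP1 (genotype 53BP1 knockout). The knockout cells were made by CRISPR-Cas9 with a lentivirus that carried 1 guide RNA against 53BP1, and the control cells carried a vector with Cas9 and no guide; the sources used here give neither the guide's sequence nor whether a line is 1 clone. Nothing in the labels ties the libraries of a group to separate cultures, so p-values measure only the spread between these libraries, and that spread may be technical. Depth lay between 16654411 and 18164086 counts per library.

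TP53BP1, the targeted gene, had 431 and 594 counts in the sgControl libraries and 1743 and 1516 in the libraries labelled sg53BP1, a log2 fold change of 1.56 ± 0.18 (SE; quasi-likelihood test of edgeR, p adjusted by Benjamini-Hochberg = 0.00224). Its RNA was thus higher where the knockout is labelled, and every direction below is relative to that label. Of 15 marker genes of retinal pigment epithelium, 13 were in the table and 8 passed the filter, and the others in the table were too low to test. The pigment enzyme gene TYR was at or near 0, with 0, 0, 2 and 0 counts, and RPE65 and TTR were not analysed here. The summed level of the markers was 724 and 1095 CPM (counts scaled to library size, with TMM factors) in the sgControl libraries against 711 and 752 in the libraries labelled sg53BP1. Most of it was KRT8 (548 and 850 CPM against 484 and 518) and KRT18. Of the 8 tested markers, 5 had a log2 fold change above 0, beside 47.4% of all tested genes. Their median was 0.12, and none was called, beside 5.08% of all tested genes. Of 8 fibroblast markers, 5 were tested and THY1 and PDGFRA fell (edgeR adjusted p = 0.00602 and 0.0386), beside 3.01% of all tested genes called lower. Neither call held without sg53BP1 replicate 1 or 2, where nearly all calls over all genes were lost too. The DESeq2 Wald test called FAP as well, and limma-voom called THY1 and PDGFRA. The tested markers had a median log2 fold change of −0.82, with 1 above 0. An unadjusted edgeR p under 0.05 was found for 4 of them, beside 19.3% of all tested genes. The summed level of the 8 was 380 and 336 CPM against 203 and 214.

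The respiratory chain passes electrons from NADH and succinate through complexes I and II to ubiquinone, and on through complex III and cytochrome c to complex IV, which reduces oxygen. Complexes I, III and IV pump protons across the inner mitochondrial membrane, and complex V, the ATP synthase, makes ATP as they flow back. All of these except complex II are built from subunits of both genomes. The mitochondrial RNAs are cut from long transcripts of both strands of a circular genome, while each nuclear subunit has a gene and promoter of its own.

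The mitochondrial subunits had higher levels on average in the libraries labelled sg53BP1, and the nuclear subunits lay near 0 difference. The log2 fold change was above 0 for all 13 mitochondrial members, from 0.17 to 0.88, and its median was 0.59. Without sgControl replicate 2 that median was 0.23, and COX2 and COX3 were at −0.08 and −0.06. The 78 tested nuclear members had a median of 0.05, with 50 above and 28 below 0, beside a median of −0.02 and 47.4% above 0 over all 13140 tested genes. ND4, a proton-pumping core subunit of complex I, was the only member that passed the test, and it rose 1.51-fold. A call was made for 5.08% of all tested genes (2.07% higher and 3.01% lower), against 1 of 91 members. An unadjusted edgeR p under 0.05 was found for 19.3% of all tested genes, 4 of 13 mitochondrial and 1 of 78 nuclear members. In bulk RNA, fewer cells that carry an RNA and less of it per cell cannot be told apart.

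Much of the spread behind these values lay between the sgControl libraries. Mitochondrial members took 2.73% of all counts in sgControl replicate 1 and 1.74% in replicate 2, against 2.93% and 2.87% in the libraries labelled sg53BP1. The group means were 2.23% ± 0.702 and 2.90% ± 0.0441 (SD, n = 2 each). The lowest library was sgControl replicate 2, and the other control lay slightly under both libraries labelled sg53BP1, so the groups did not overlap. Nuclear members took 0.696% and 0.664% of counts in the sgControl libraries and 0.680% and 0.735% in the libraries labelled sg53BP1, and there the groups overlapped. Exact binomial (Clopper-Pearson) 95% intervals ran from 1.729% to 1.742% for the lowest mitochondrial share and from 2.721% to 2.737% for the other control, so counting error was small beside the gap. These intervals cover counting error only.

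**Figure D1:**
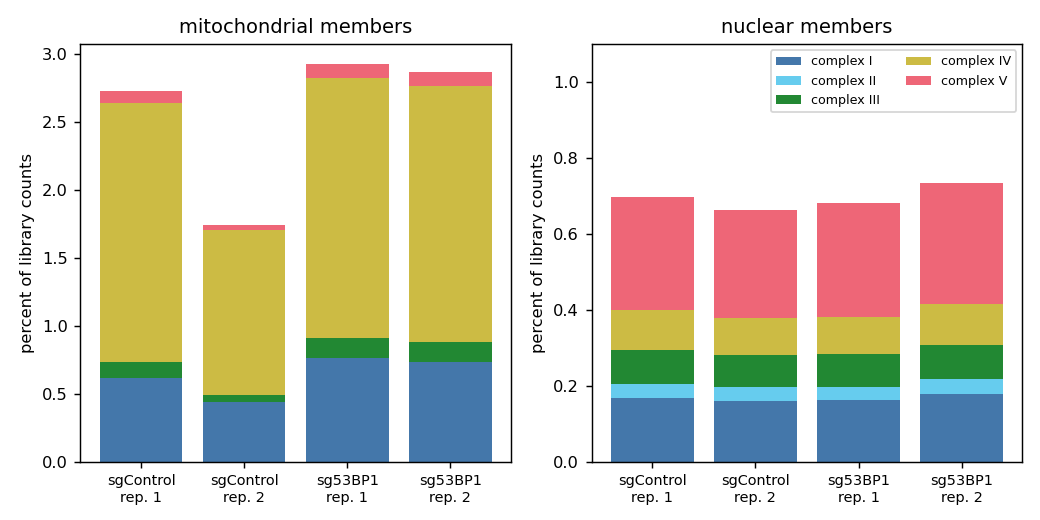
Percent of each library's counts taken by mitochondrial members (left, 13 genes) and nuclear members (right, 85 genes), stacked by complex; the panels have different scales. The mitochondrial bar of sgControl replicate 2 reaches 1.74% and the other 3 lie between 2.73% and 2.93%, while the nuclear bars lie between 0.664% and 0.735%.

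The summed mitochondrial level was 3.92 times the summed nuclear level in sgControl replicate 1 and 2.61 times in replicate 2. In the libraries labelled sg53BP1 the ratio was 4.31 and 3.90. The groups overlapped, since sgControl replicate 1 lay between both libraries labelled sg53BP1. The mean log2 ratio differed by 0.36 between groups, and by 0.07 without sgControl replicate 2. No test was made on these sums.

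By complex, the ratio of mitochondrial to nuclear RNA separated the groups for complexes I, III and V and not for complex IV. For complex I it was 3.68 and 2.71 in the sgControl libraries and 4.74 and 4.12 in the libraries labelled sg53BP1. For complex III, with CYTB as the single mitochondrial member, it was 1.29 and 0.699 against 1.73 and 1.64. For complex V, where nuclear RNA was the larger part, it was 0.301 and 0.125 against 0.338 and 0.333. For complex IV it was 18.1 and 12.4 against 19.4 and 17.5, so sgControl replicate 1 lay within the range of the libraries labelled sg53BP1. In each of these complexes sgControl replicate 2 had the lowest ratio. Set against sgControl replicate 1 alone, the mean log2 ratio was higher by 0.27, 0.38, 0.16 and 0.02 for complexes I, III, V and IV. As a reference, 24.8% of all tested genes were higher in both libraries labelled sg53BP1 than in both controls. The complexes share the same libraries, and no test was made on these ratios.

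**Figure D2:**
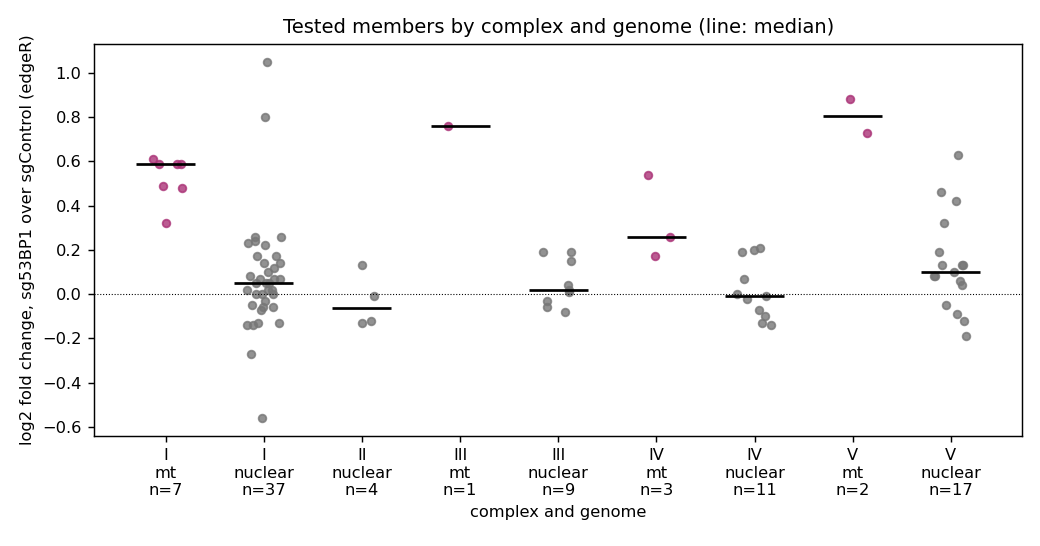
Log2 fold change (libraries labelled sg53BP1 over sgControl, edgeR) of the 91 tested members by complex and genome; each point is 1 gene and the line is the median. The mitochondrial medians are 0.59, 0.76, 0.26 and 0.80 for complexes I, III, IV and V, and the nuclear medians lie between −0.07 and 0.10.

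Complex I holds 7 mitochondrial subunits, which form the core of its membrane arm. ND4 (ENSG00000198886) had 2087 and 1625 CPM in the sgControl libraries and 2832 and 2768 CPM in the libraries labelled sg53BP1. Both libraries labelled sg53BP1 were above both controls, and they differed from each other far less than the controls did. The group means were 1856 ± 327 and 2800 ± 44.6 CPM (SD, n = 2), and the log2 fold change was 0.59 ± 0.14 (SE; 95% interval 0.28 to 0.91; edgeR quasi-likelihood test, adjusted p = 0.046). In the authors' deposited table, read in the same direction, the log2 fold change was 0.61 with an adjusted p of 0.00453, and ND4 and ND4L were the 2 members under 0.05 there, where 6.17% of genes were. The ND4 call did not hold when libraries were scaled from nuclear genes alone (edgeR adjusted p = 0.0502). ND4 also lost its call with sg53BP1 replicate 1 or 2 left out, where nearly all calls over all genes were lost too. Without sgControl replicate 1 its log2 fold change was 0.82, and without sgControl replicate 2 it was 0.43, with edgeR adjusted p-values of 3.68e-15 and 8.38e-05; the spread was then estimated from the libraries labelled sg53BP1 almost alone.

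ND4L, which lies directly before ND4 on the same messenger RNA, had 236 and 177 CPM against 317 and 303 CPM. Its log2 fold change of 0.59 ± 0.15 (SE) was the size of that of ND4 but missed the threshold (edgeR adjusted p = 0.0685). The level of ND4 per kilobase of exon was 1.91, 1.98, 1.92 and 1.97 times that of ND4L over the 4 libraries, the controls first. That ratio changed little from library to library, while the levels themselves moved together.

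The other 5 mitochondrial subunits of complex I were also higher in both libraries labelled sg53BP1 than in both controls, as were 24.8% of all tested genes. ND1 had 1090 and 802 CPM against 1186 and 1172, ND2 had 1045 and 697 against 1248 and 1185, and ND3 had 394 and 162 against 415 and 435. ND5 had 1144 and 801 CPM against 1485 and 1255. ND6, the only member read from the opposite strand, had 172 and 98.3 CPM against 213 and 193. In each case sgControl replicate 2 was the lowest library and replicate 1 was next. Their log2 fold changes ran from 0.32 for ND1 to 0.61 for ND3, with adjusted p between 0.209 and 0.665.

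CYTB encodes cytochrome b, the mitochondrial subunit of complex III that holds its ubiquinone sites. It had 1164 and 581 CPM in the sgControl libraries and 1485 and 1475 CPM in the libraries labelled sg53BP1. The groups did not overlap, as for 24.8% of all tested genes in this direction. The controls differed 2-fold from each other, and the log2 fold change of 0.76 ± 0.40 (SE, edgeR adjusted p = 0.442) did not pass. Without sgControl replicate 2 the log2 fold change was 0.35.

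The 3 mitochondrial subunits of complex IV, which carry or surround its heme and copper centres, were the mitochondrial members whose groups overlapped. COX1 was the most abundant of all members, with 13436 and 9181 CPM in the sgControl libraries and 13885 and 13197 CPM in the libraries labelled sg53BP1. COX2 had 3160 and 2094 CPM against 2900 and 3026. COX3 had 2562 and 807 CPM against 2461 and 2432. In all 3 genes sgControl replicate 2 was alone at the low end, and sgControl replicate 1 lay within or above the range of the libraries labelled sg53BP1. Their log2 fold changes were 0.26 ± 0.18, 0.17 ± 0.19 and 0.54 ± 0.76 (SE; edgeR adjusted p = 0.510, 0.704 and 0.799). Without sgControl replicate 2 they were −0.08 for COX2 and −0.06 for COX3.

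ATP6 and ATP8 encode membrane subunits of the ATP synthase and share bases, since ATP6 starts in another reading frame before ATP8 ends. ATP6 had 888 and 356 CPM in the sgControl libraries and 1010 and 1051 CPM in the libraries labelled sg53BP1, and ATP8 had 53 and 28 counts against 88 and 73. The groups did not overlap for either gene, as for 24.8% of all tested genes in this direction. The log2 fold changes were 0.73 ± 0.57 for ATP6 and 0.88 ± 0.40 for ATP8 (SE; edgeR adjusted p = 0.624 and 0.274). Per kilobase of exon, ATP6 stood at 84.6, 65.0, 63.1 and 78.8 times the level of ATP8, although both lie on 1 messenger RNA. A read that touches both genes may not have been assigned to either, and the part of this in the low ATP8 counts was not tested. ATP6 and COX3 share 1 base. The sequences of the other overlapping pairs, ATP8 with ATP6 and ND4L with ND4, are shown because 22.2% of ATP8 and 2.4% of ND4L lie within their neighbour. They are from the plus strand of GRCh38 (GENCODE release 29 transcripts), 5′ to 3′, at chrM:8366-8572, chrM:8527-8626, chrM:10667-10766 and chrM:10760-10859, and capitals mark the bases shared by both genes of a pair, 46 for ATP8 and ATP6 and 7 for ND4L and ND4.
ATP8, whole: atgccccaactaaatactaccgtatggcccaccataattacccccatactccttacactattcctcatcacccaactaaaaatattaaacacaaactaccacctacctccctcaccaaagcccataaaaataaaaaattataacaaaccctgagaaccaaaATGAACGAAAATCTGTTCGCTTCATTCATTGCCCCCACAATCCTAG
ATP6, first 100 bases: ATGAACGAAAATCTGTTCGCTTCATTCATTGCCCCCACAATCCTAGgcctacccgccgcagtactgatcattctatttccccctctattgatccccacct
ND4L, last 100 bases: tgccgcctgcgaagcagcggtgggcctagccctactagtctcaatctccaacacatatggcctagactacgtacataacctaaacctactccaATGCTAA
ND4, first 100 bases: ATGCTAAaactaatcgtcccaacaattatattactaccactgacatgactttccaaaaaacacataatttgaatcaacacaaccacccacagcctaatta

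**Figure D3:**
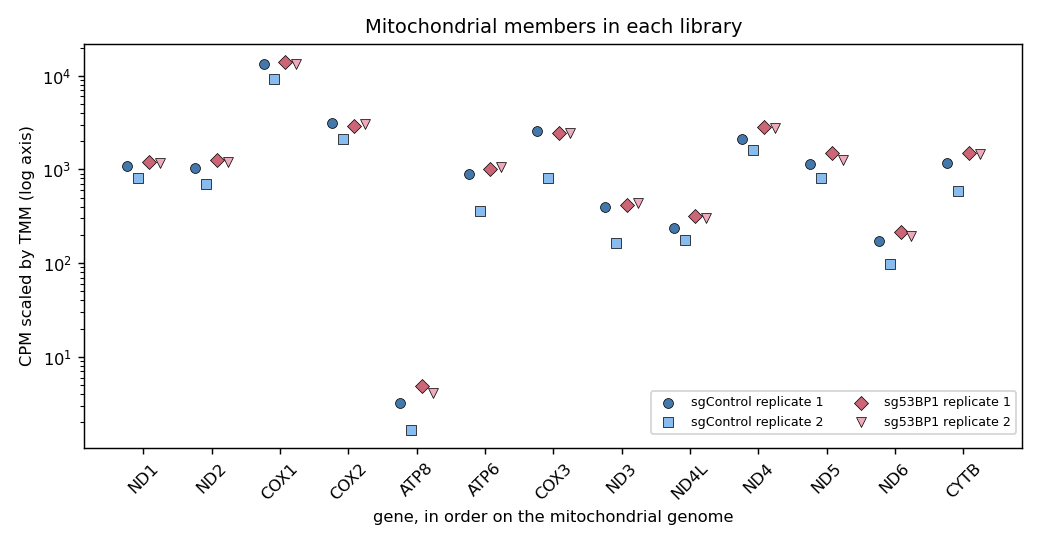
Level of the 13 mitochondrial members in each of the 4 libraries (CPM scaled by TMM, log axis), in their order on the mitochondrial genome. sgControl replicate 2 is the lowest point for all 13 genes, and sgControl replicate 1 lies below both libraries labelled sg53BP1 for the 10 genes other than COX1, COX2 and COX3.

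The count of members called moved with the libraries used, as did the count over all genes. Without sgControl replicate 1, 16 of 91 members passed (13 mitochondrial and 3 nuclear) beside 24.5% of all genes, and without sgControl replicate 2, 5 passed beside 18.4%. Without sg53BP1 replicate 1 or 2, 0 members and 0.0366% of genes passed. Scaling from nuclear genes alone called 0 members and 4.92% of genes, no low-count filter 5 members and 7.88%, the DESeq2 Wald test 2 members and 6.64%, and limma-voom 1 member and 5.05%. In the settings that called mitochondrial members, the called ones were higher in the libraries labelled sg53BP1.

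In all, 10 of 13 mitochondrial members (76.9%) were higher in both libraries labelled sg53BP1 than in both controls, beside 24.8% of all tested genes. Among tested nuclear members the same held for 21 of 78 (26.9%), and 11 were lower in both, beside 25.9% of all genes. The mitochondrial members share 1 pair of long transcripts and the same 4 libraries, so they are not separate observations.

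The gap between the controls was uneven along the mitochondrial genome. From sgControl replicate 1 to replicate 2 the log2 level was lower by 1.67 for COX3, a 3.17-fold difference, which was the widest gap of the 13. The differences were −1.32 for ATP6, −1.28 for ND3, −1.0 for CYTB, −0.89 for ATP8 and −0.81 for ND6. The other 7 lay between −0.59 for COX2 and −0.36 for ND4. Thus ATP6, COX3 and ND3, which follow each other on the genome, had the widest gaps, and ND4L and ND4, which come next, had among the narrowest. The median over the 13 genes was −0.59, against −0.04 over the 78 nuclear members. The same difference between the libraries labelled sg53BP1 had a median of −0.03 and stayed between −0.26 and 0.07.

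Within the mitochondrial counts, COX1 made up 49.1% and 52.8% in the sgControl libraries and 47.2% and 46.3% in the libraries labelled sg53BP1. COX3 made up 9.36% and 4.64% against 8.36% and 8.54%, and ND4 made up 7.62% and 9.34% against 9.62% and 9.71%. The makeup of sgControl replicate 2 thus stood apart for COX3, whereas for ND4 it was sgControl replicate 1 that stood apart from the other 3 libraries.

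Over all genes with a mean of at least 5 CPM, 3.96% differed more than 2-fold between the sgControl libraries and 0.0384% between the libraries labelled sg53BP1, and 52.2% were lower in sgControl replicate 2. Replication-dependent histone genes, whose RNAs lack a poly(A) tail and which were added after values were seen, had a median difference of 1.16 (log2) in the other direction between the controls, with 20 of 45 tested. Their sum was 92.4 and 238 CPM in the sgControl libraries and 84.8 and 103 CPM in the libraries labelled sg53BP1. The part of these library differences in the mitochondrial values was not tested. Set against sgControl replicate 1 alone, the mean log2 level of the libraries labelled sg53BP1 was higher by 0.11 to 0.42 for the complex I subunits, by 0.35 for CYTB, 0.21 for ATP6 and 0.46 for ATP8. For COX1, COX2 and COX3 that difference was 0.01, −0.09 and −0.07.

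**Figure D4:**
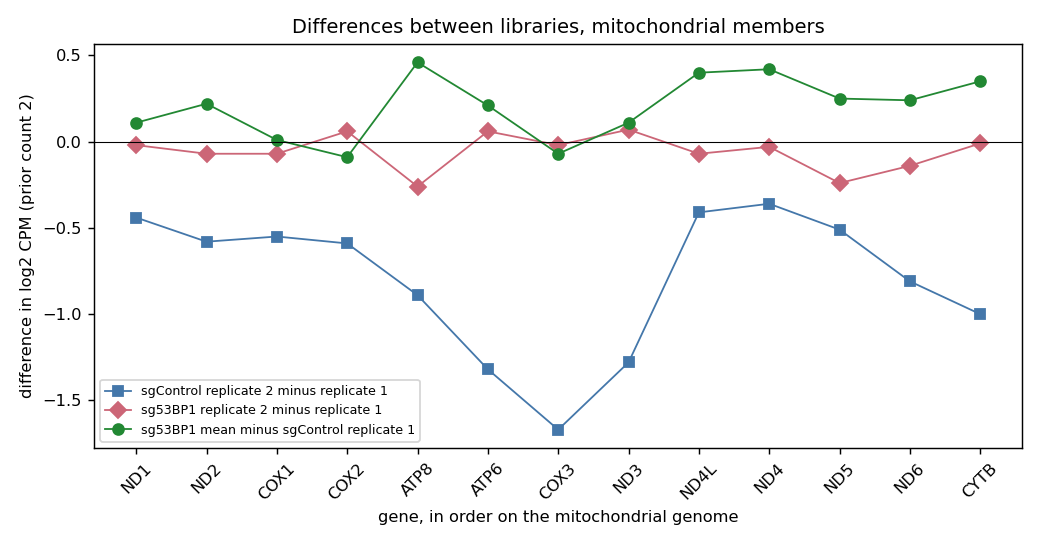
Differences in log2 CPM (prior count 2) for the 13 mitochondrial members in genome order: sgControl replicate 2 minus replicate 1 (squares), replicate 2 minus replicate 1 of the libraries labelled sg53BP1 (diamonds), and their mean minus sgControl replicate 1 (circles). The squares fall to −1.67 at COX3, the diamonds stay between −0.26 and 0.07, and the circles are highest at ATP8 (0.46), ND4 (0.42) and ND4L.

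Per kilobase of exon, the mitochondrial members had a median level of 1031 CPM, from 16.6 for ATP8 to 8058 for COX1, and the 85 nuclear members a median of 17.9 CPM with ATP5F1B highest at 521. Nuclear levels differed with the overlap between genes: 37 members with 5% or more of their exon bases shared with another annotated gene had a median of 5.16 CPM per kilobase, and the 48 others 31.3. The part of reads lost to such overlaps was not tested. The median log2 fold change was 0.12 for the overlapped and 0.02 for the other nuclear members that were tested.

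No nuclear subunit passed the test, by edgeR, the DESeq2 Wald test or limma-voom, and 1 of 78 had an unadjusted edgeR p under 0.05, beside 19.3% of all tested genes. The fitted log2 fold change was within 0.25 of 0 for 68 of them. The 95% interval lay within 1 log2 unit of 0 on both sides for 71 and within 0.5 for 53, so for these a larger difference between the groups fell outside the interval. For the mitochondrial members the interval lay within 1 log2 unit for 7 of 13 and within 0.5 for 0.

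Among 37 tested nuclear subunits of complex I, 25 were above 0 and 12 below, with a median of 0.05. NDUFS5, an accessory subunit and the most abundant of them per kilobase, had 105 and 100.3 CPM in the sgControl libraries and 114 and 125 CPM in the libraries labelled sg53BP1, a log2 fold change of 0.22 ± 0.12 (SE; edgeR adjusted p = 0.389). NDUFV2, a subunit of the NADH-oxidising module, had the highest fold change, on 7, 9, 21 and 15 counts, at 1.05 ± 0.57 (SE; edgeR adjusted p = 0.363), and 28.4% of its exon bases overlap another gene. The lowest was NDUFA4L2 at −0.56 ± 0.50 (SE; edgeR adjusted p = 0.611), with 17 and 20 counts against 14 and 13. NDUFA4, its relative that is now placed in complex IV although its symbol puts it here, had 118 and 100.0 CPM against 119 and 126, a log2 fold change of 0.17. These extremes were thus in genes of few counts. NDUFS5 and NDUFA4 were higher in both libraries labelled sg53BP1 than in both controls, as were 24.8% of all tested genes. Neither NDUFS5 nor NDUFA4 passed.

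Complex II, succinate dehydrogenase, has no mitochondrial subunit, and its 4 members had a median log2 fold change of −0.07. SDHA, the flavoprotein that oxidises succinate, had 156 and 155 CPM in the sgControl libraries and 149 and 160 CPM in the libraries labelled sg53BP1. SDHB, its iron-sulfur partner, had 94.0 and 90.2 CPM against 79.8 and 88.8. The membrane anchors SDHC and SDHD had 98.9 and 85.9 CPM against 98.1 and 104, and 39.3 and 41.8 CPM against 36.4 and 38.1. The groups overlapped for SDHA and SDHC. SDHB and SDHD were lower in both libraries labelled sg53BP1 than in both controls, as were 25.9% of all tested genes. None of the 4 members passed, with log2 fold changes between −0.13 and 0.13 and 95% intervals within −0.42 and 0.42.

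The 9 nuclear members of complex III had a median of 0.02 and lay between −0.08 for UQCR11 and 0.19 for UQCRH and its near-copy UQCRHL, whose reads the counting may divide. UQCRC1, a core subunit of the matrix side, had 300.5 and 271 CPM in the sgControl libraries and 259 and 290 CPM in the libraries labelled sg53BP1. UQCRH, the hinge protein and the most abundant per kilobase, had 144 and 128 CPM against 151 and 159. The groups overlapped for UQCRC1. UQCRH was higher in both libraries labelled sg53BP1 than in both controls, as were 24.8% of all tested genes. Neither UQCRC1 nor UQCRH passed (edgeR adjusted p = 0.861 and 0.473).

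In complex IV, 11 of 15 nuclear members were tested, with a median of −0.01. COX4I1, the broadly used form of subunit 4 that binds ATP, had 245 and 230 CPM in the sgControl libraries and 229 and 246 CPM in the libraries labelled sg53BP1, a difference of 0.00 ± 0.12 (log2, SE). COX5A was highest at 0.21, with 93.6 and 89.9 CPM against 100.5 and 112, and COX7B was lowest at −0.14, with 81.1 and 83.5 CPM against 72.0 and 77.8. COX6B1, the most abundant per kilobase, had 100.0 and 85.6 CPM against 88 and 94.8. COX4I1 and COX6B1 overlapped between groups, and COX5A and COX7B did not, though neither passed (edgeR adjusted p = 0.408 and 0.623). Over all tested genes, 24.8% were higher and 25.9% lower in both libraries labelled sg53BP1 than in both controls.

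Where complex IV has forms for different tissues, the form used in most cells was the one found. COX6A2 and COX7A1, the forms of heart and skeletal muscle, had 0, 0, 3 and 0 counts and 0, 5, 1 and 3 counts. COX7A2 and the related COX7A2L had 1560 to 1771 and 1548 to 1662 counts, with log2 fold changes of −0.07 and −0.10. COX6B2 and COX8C, known from testis, had 2, 0, 0 and 2 counts and 4, 1, 0 and 0 counts, against 1439 to 1706 for COX6B1 and 112 to 144 for COX8A. COX6A1 had 85 to 95 counts, although it is the common form, and 13% of its exon bases overlap another gene. COX4I2 and COX7B2 were not analysed here.

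Complex V had the highest nuclear median, 0.10 over 17 tested members, with 13 above 0. ATP5F1B, the catalytic beta subunit and the most abundant nuclear member, had 1200.1 and 1149 CPM in the sgControl libraries and 1220.3 and 1267 CPM in the libraries labelled sg53BP1. ATP5MC1, 1 of 3 genes for the same c subunit of the rotor ring, had 46.5 and 45.5 CPM against 57.9 and 65.5. The groups did not overlap for either gene, as for 24.8% of all tested genes in this direction, and the controls were close to each other for ATP5MC1. Its log2 fold change of 0.42 ± 0.14 (SE) had an unadjusted p of 0.0138 and did not pass after adjustment (edgeR adjusted p = 0.135). Set against sgControl replicate 1 alone and replicate 2 alone, the mean log2 level of the libraries labelled sg53BP1 was higher by 0.41 and 0.43. ATP5MC1 passed with either control left out and not with either library labelled sg53BP1 left out. Calls over all genes rose and fell in the same way. ATP5MC2 and ATP5MC3, which encode the same mature protein, had log2 fold changes of 0.13 and 0.06.

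ATP5PO, which encodes a subunit of the stalk that joins the head and the membrane part of the enzyme, had the highest nuclear value in complex V, 0.63 ± 0.28 (SE; edgeR adjusted p = 0.266), on 82 and 70 against 117 and 137 counts. In all, 25.4% of its exon bases overlap other genes. ATP5F1D, the delta subunit of the central stalk, was lowest at −0.19, with 47.7 and 47.6 CPM against 38.9 and 44.6. ATP5IF1, an inhibitor of the enzyme's reverse reaction, had 106 and 105 CPM against 94.2 and 98.8, a log2 fold change of −0.12. Both were lower in both libraries labelled sg53BP1, as were 25.9% of all tested genes, and neither passed. ATP5ME, NDUFA7 and the readthrough gene ATP5MF-PTCD1 were too low to test, with at most 6 counts in a library, and 61.6%, 33.5% and 93.8% of their exon bases overlap other genes.

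Nuclear subunit genes are known for promoters with sites for NRF1, for ETS factors such as GABP and for YY1. Promoters of 300 bases (250 before to 50 after the start) were found for 68 of 85 nuclear members in RefSeq tables of GRCh38.p14 and searched on both strands. CGCNTGCG, the core letters taken for NRF1, was in 24 of 68 (35.3%) against 10.3% of all 27305 promoters. CCGGAAG, for ETS factors, was in 20 (29.4%) against 10.6%, and AAGATGGC, for YY1, in 12 (17.6%) against 3.0%. At least 1 of the 3 was in 63.2% of members and 20.9% of all promoters. Overlaps between different motifs were not counted apart. A match of letters is not a bound site. The promoters of ATP5PO (chr21:33915755-33916054, minus strand), with the NRF1 and YY1 letters, and of COX4I1 (chr16:85799445-85799744, plus strand), with the ETS letters, are shown 5′ to 3′ as examples of each motif, with the motifs in capitals.
ATP5PO: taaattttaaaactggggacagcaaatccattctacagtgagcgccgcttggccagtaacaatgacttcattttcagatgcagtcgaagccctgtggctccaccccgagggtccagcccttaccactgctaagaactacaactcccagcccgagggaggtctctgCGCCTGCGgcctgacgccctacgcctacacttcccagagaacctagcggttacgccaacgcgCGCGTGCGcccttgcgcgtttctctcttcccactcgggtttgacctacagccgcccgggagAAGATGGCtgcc
COX4I1: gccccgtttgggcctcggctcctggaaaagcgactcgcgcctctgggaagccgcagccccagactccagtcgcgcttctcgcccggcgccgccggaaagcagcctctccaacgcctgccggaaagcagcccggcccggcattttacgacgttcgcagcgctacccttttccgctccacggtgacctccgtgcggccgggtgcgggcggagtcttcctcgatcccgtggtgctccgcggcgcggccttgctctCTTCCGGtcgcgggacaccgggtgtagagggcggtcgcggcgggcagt

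Genes that act on the mitochondrial genome, its RNA and its translation had no call by edgeR, the DESeq2 Wald test or limma-voom, where 5.08%, 6.64% and 5.05% of all genes were called; an unadjusted edgeR p under 0.05 was found for 19.3% of all genes. None of 25 tested genes for mitochondrial transcription and RNA processing passed (1 at an unadjusted edgeR p under 0.05), with a median of 0.06 and a range from −0.27 for MTERF2 to 0.31 for FASTKD2. PNPT1, a mitochondrial RNA-degrading enzyme chosen after its values were seen, had the widest gap between controls in this list, with 58.9 and 239 CPM in the sgControl libraries and 140.2 and 121 CPM in the libraries labelled sg53BP1. It was highest in sgControl replicate 2, the library lowest in all 13 mitochondrial RNAs, and the part of this in those levels was not tested. The summed level of the list was 1303 and 1509 CPM against 1507 and 1459. TFAM, which packages mitochondrial DNA and starts transcription, had 93.4 and 88.7 CPM in the sgControl libraries and 107 and 93.6 CPM in the libraries labelled sg53BP1, a log2 fold change of 0.14. POLRMT, the mitochondrial RNA polymerase, was at 0.16, and LRPPRC, which stabilises mitochondrial messenger RNAs, at 0.19. None of 21 genes for mitochondrial DNA maintenance passed either (1 at an unadjusted p under 0.05), with a median of 0.11 and values from −0.41 for EXOG to 0.37 for the helicase TWNK. The 82 mitochondrial ribosomal proteins had a median of 0.13 with 61 above 0, beside a median of −0.02 and 47.4% above 0 over all tested genes. Their values ran from −0.41 for MRPL38 to 0.78 for MRPL12, and 7 had an unadjusted edgeR p under 0.05, a lower share than over all genes. Mitochondrial ribosomal RNAs were not analysed here.

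Of 12 regulators of mitochondrial biogenesis, none passed edgeR's test, with a median of 0.10 and 3 genes at an unadjusted p under 0.05, beside 5.08% called and 19.3% at that p over all genes; the DESeq2 Wald test called 1, PPARGC1A, and limma-voom 0. PPARGC1A, the coactivator PGC-1α, was lowest, with 8.19 and 17.4 CPM in the sgControl libraries and 5.42 and 3.83 CPM in the libraries labelled sg53BP1. It was lower in both libraries labelled sg53BP1, as were 25.9% of all tested genes, but its controls also stood far apart. The log2 fold change of PPARGC1A, −1.47 ± 0.40 (SE), missed the threshold (edgeR adjusted p = 0.106). ESRRG, an orphan nuclear receptor, was highest at 1.07 (edgeR adjusted p = 0.237).

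Among assembly factors, 1 of 56 tested genes passed, by edgeR, the DESeq2 Wald test and limma-voom alike, beside 5.08%, 6.64% and 5.05% of all genes. BCS1L, the chaperone that inserts the iron-sulfur protein into complex III, had 19.2 and 17.3 CPM in the sgControl libraries and 29.9 and 32.3 CPM in the libraries labelled sg53BP1. The groups stood clearly apart, and BCS1L rose with a log2 fold change of 0.77 ± 0.15 (SE; edgeR adjusted p = 0.0237). The call was lost without sg53BP1 replicate 1 or 2, where nearly all calls over all genes were lost too. The iron-sulfur protein itself, UQCRFS1, was at −0.03. Medians were 0.06 for 18 factors of complex I, 0.10 for 4 of complex II, 0.01 for 6 of complex III, 0.00 for 23 of complex IV and 0.02 for 5 of complex V. The lowest and highest values were −0.60 for TMEM186 and 0.34 for NDUFAF4 in complex I, −0.26 for UQCC3 in complex III, −0.95 for COX20 and 0.34 for COX11 in complex IV, and −0.25 for DMAC2L and 0.65 for ATPAF1 in complex V. In complex II they were −0.47 for SDHAF1 and 0.86 for SDHAF3, which had 6.99 and 8.63 CPM against 15.8 and 12.6 and an edgeR adjusted p of 0.0687. Of 3 electron carriers and feeders, CYCS (cytochrome c) was at 0.28, the flavoprotein oxidoreductase ETFDH at 0.62 and DHODH at 0.18. None of the 3 passed, and 1 had an unadjusted edgeR p under 0.05, beside 19.3% of all tested genes. Overlaps with other genes were looked up for members only.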

How the data were processed

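RNA of 4 hTERT-RPE1 libraries was sequenced as 150 bp paired reads from 2 µg of RNA each, per the labels' protocols. The submitters' processing notes name genome build hg19 and the tools Bowtie2 2.2.3, HISAT2 2.1.0 and HTSeq 0.6.0. The step each did, the gene annotation and whether counting used strand were not given in the sources used here, so reads of overlapping or antisense genes cannot be told apart.

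The authors deposited raw read counts per gene and library. The same deposited table holds their comparison: a mean level (signal), a log2 fold change with its standard error, a test statistic (score), and p-values. In 97.09% of 11943 genes with 100 or more counts, the deposited log2 fold change had the sign of control over knockout, and it was turned here. The table's 20050 rows held 19653 identifiers, and 397 repeats were removed. GENCODE release 29, on GRCh38, gave gene types, exon lengths and overlaps, and matched all 19653 identifiers.

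Both groups were compared in R 4.3.3 by edgeR 4.0.16 and its quasi-likelihood F test, with filterByExpr, TMM factors from 0.9961 to 1.007, robust dispersion and no covariate, and with Benjamini-Hochberg adjustment over 13140 genes and a threshold of 0.05. The biological coefficient of variation was 0.18, and 667 genes passed. Standard errors were calculated from the F statistic. The procedure was tested on simulated data. Differences between single libraries used log2 CPM with a prior count of 2. Replicates differed by more than sampling noise (chi-square per degree of freedom 56.1 for sgControl and 7.22 for sg53BP1).

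Genes named were all mitochondrial members, TP53BP1, the highest, lowest and most abundant nuclear member of each complex, related forms of a subunit, members below the filter, and called or extreme genes of each list. CYCS, DHODH and ETFDH, and genes named beside these, were chosen after values were seen. Members and lists were chosen with earlier results of these data known. Alternatives were DESeq2 1.42.0 size factors and Wald test, library totals, scaling from nuclear genes, no filter, a mean of at least 5 CPM, limma-voom (limma 3.58.1), a replicate block and leaving out each library, which assumes that the remaining library of that group varies as the other group does. Restricting nuclear members to under 5% exon overlap and leaving out ATP8 were chosen after seeing the data. The letters searched for NRF1 were shortened to the core of its motif after a first search with a longer form, which also gave a higher share in the members' promoters than in all promoters.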

Additional observations from a re-analysis of the deposited data

How the results depend on the processing

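Against 1 member called and 667 genes in all, no low-count filter gave 5 members and 1548 genes, the DESeq2 Wald test gave 2 members, and scaling from nuclear genes alone gave 0. Leaving out 1 library gave between 0 and 16 members and between 5 and 3358 genes: 16 without sgControl replicate 1 (all 13 mitochondrial members, COX7C, ATP5MC1 and ATP5PO), 5 without sgControl replicate 2 (ND4, ND4L, CYTB and ATP5MC1 higher and NDUFA5 lower), and 0 without sg53BP1 replicate 1 or 2. The mitochondrial median ran from 0.23 without sgControl replicate 2 to 0.84 without sgControl replicate 1, the nuclear median from −0.02 to 0.11, and the difference in mitochondrial share from 0.17 to 1.16 percentage points around 0.67. The cause of these shifts was not tested. The mitochondrial median stayed between 0.56 and 0.60 under the alternatives that kept all 4 libraries. A share with a median in place of the sum could not be given.

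The labels do not say whether equal replicate numbers pair the libraries. The replicate 2 minus replicate 1 difference correlated at 0.0468 between groups across 10407 genes. These genes are not independent and each group gives 1 such difference, so the correlation cannot show whether libraries were paired. With the replicate block, 297 genes (2.26%) and 0 members were called; ND4 had an edgeR adjusted p of 0.107, BCS1L of 0.0753 and PDGFRA of 0.0932.

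Values near 0 changed sign. COX4I1 was −0.007 with a mean of at least 5 CPM. With DESeq2 size factors, nuclear scaling and the DESeq2 Wald test, COX6A1 was 0.006, 0.01 and 0.01 and SDHA was 0.001, 0.007 and 0.005. Leaving out 1 library gave ranges across 0 for ATP5MC3 (−0.02 to 0.16), COX2 (−0.08 to 0.53), COX3 (−0.06 to 1.63), COX4I1 (−0.05 to 0.08), COX6A1 (−0.05 to 0.04), COX6B1 (−0.12 to 0.13), COX7A2 (−0.16 to 0.07), SDHA (−0.06 to 0.04), UQCC3 (−0.56 to 0.16), UQCR11 (−0.15 to 0.03) and UQCRFS1 (−0.07 to 0.05). A floor of 3 counts was 0.165 to 0.180 CPM in a library, and the 7 members below the filter, and members with few counts such as NDUFV2, could not show small differences at this depth.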
